A study of Mus musculus with 17 samples.

Results

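The transcripts of 10 pluripotency transcription factors were followed in single 2-cell mouse embryos: Pou5f1, Sox2, Nanog, Klf4, Klf5, Myc, Esrrb, Sall4, Zfp42 and Tfcp2l1. The members were taken by gene symbol, and each matched exactly 1 row of the array table, so that 10 rows were read out of 28815 in all and out of 21780 that carry exactly 1 gene symbol. Each sample was 1 embryo on 1 array. The PJ34 embryos (n = 10) were sired by wild-type males injected each day for 6 weeks before mating with PJ34, which blocks the enzymes that build poly(ADP-ribose), PARP1 and PARP2. The control embryos (n = 7) were sired by wild-type males given saline, which some labels call untreated. All fathers and mothers were of strain 129SVE, and the mothers received no treatment. The PJ34 embryos came from 3 sires (MTM11 with 4 embryos, MTM13 with 4 and MTM14 with 2) and the control embryos from 3 others (A with 1, B with 3 and D with 3). Embryos of 1 sire are not independent males, so p-values over embryos measure the spread between these embryos. The comparison asks whether treating the father changed the RNA of the embryo.

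These factors bind DNA and hold the pluripotent state of the inner cell mass and of embryonic stem cells. Pou5f1 (OCT4) pairs with Sox2 on shared sites. Nanog, Esrrb, Tfcp2l1, Klf4, Klf5 and Sall4 reinforce this circuit, Myc promotes growth, and Zfp42 (REX1) is a marker of the ground state that lies downstream of it. In the mouse the 2-cell stage is when most inherited oocyte RNA is lost and the embryo's own genome is switched on. A transcript at this stage can therefore be left over from the oocyte or newly made, and an array cannot tell these apart.

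The proximal promoters of 2 members are shown because the results turn on these genes and because OCT4 itself binds an octamer in the Zfp42 promoter. The 250 bases before the start site are given from RefSeq (build GRCm38.p6), read on the strand of the gene. Capitals in the Zfp42 promoter (chr8:43307010-43307259, minus strand) mark the octamer ATGCAAAT, here on the other strand, 186 to 179 bases before the start. Capitals in the Pou5f1 promoter (chr17:35505782-35506031, plus strand) mark a GC box (GGGCGG), 45 to 40 bases before the start.
Zfp42: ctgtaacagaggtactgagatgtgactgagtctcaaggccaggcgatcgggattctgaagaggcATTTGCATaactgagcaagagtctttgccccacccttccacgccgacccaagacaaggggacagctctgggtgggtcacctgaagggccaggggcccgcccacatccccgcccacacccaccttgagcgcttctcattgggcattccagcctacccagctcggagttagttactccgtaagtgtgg
Pou5f1: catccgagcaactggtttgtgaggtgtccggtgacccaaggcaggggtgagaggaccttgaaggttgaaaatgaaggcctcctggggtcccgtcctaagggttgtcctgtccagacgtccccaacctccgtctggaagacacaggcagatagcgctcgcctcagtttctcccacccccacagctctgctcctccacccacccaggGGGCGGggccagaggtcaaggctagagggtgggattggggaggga

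RefSeq promoter windows were matched for 7 of the 10 members, with 10 windows in all. On both strands of the same 250 bases, the octamer was found in 1.6% of 32851 promoter windows of the genome and in the windows of 1 member, Zfp42. The GC box was found in 32.7% of all windows and in 4 of the 10 member windows. A KLF motif (GGGTGTGG, 3.2% of windows) was also found in the Zfp42 window. A SOX motif (CATTGTT, 3.29% of windows) was found in another Pou5f1 window, not the one printed. An E-box (CACGTG, 6.02% of windows) was found in a Klf4 window. The ESRRB motif (TCAAGGTCA, 0.387% of windows) was found in no member window. Such matches describe the letters only, and the co-variation of Pou5f1 and Zfp42 is given further on.

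The arrays were alike in scale. Their medians lay between 6.12 and 6.23 on the deposited log2 scale, and any pair of arrays correlated with r between 0.924 and 0.961 over all rows. Genes of the oocyte were at high levels, with 20 of 22 rows of the maternal list above background, and genes of genome activation were present in 13 of 14 rows. These 14 rows cover only 13 of the 25 genes of the genome activation list. The rest, with all its Zscan4 genes, were not found among rows with exactly 1 gene symbol. Of the blastocyst list, 4 of 10 rows were above background, and of the cumulus cell list 1 of 10. Of the oviduct and blood list, 2 of 5 rows were above background. Background was set as the level below which 95% of 1023 olfactory receptor rows lay, since these receptors belong to sensory neurons. It was 6.25 on the log2 scale over all embryos, and 6.16 to 6.38 in single embryos. By the same measure, 50.11% of all rows were above background.

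Of the 10 factors, 7 were above background at the 2-cell stage. In order of array level these were Pou5f1, Sall4, Klf4, Klf5, Zfp42, Myc and Nanog, followed below background by Tfcp2l1, Esrrb and Sox2. The rows of different genes respond differently on an array, so this order is one of signal and not of transcript number. Klf4 and Klf5, and likewise Zfp42, Myc and Nanog, stood closer to each other than the spread between embryos. The count was 9 against vomeronasal receptor rows, which added Esrrb and Tfcp2l1, and 5 against the 99th percentile of the olfactory receptor rows, which left out Nanog and Myc.

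**Figure D1:**
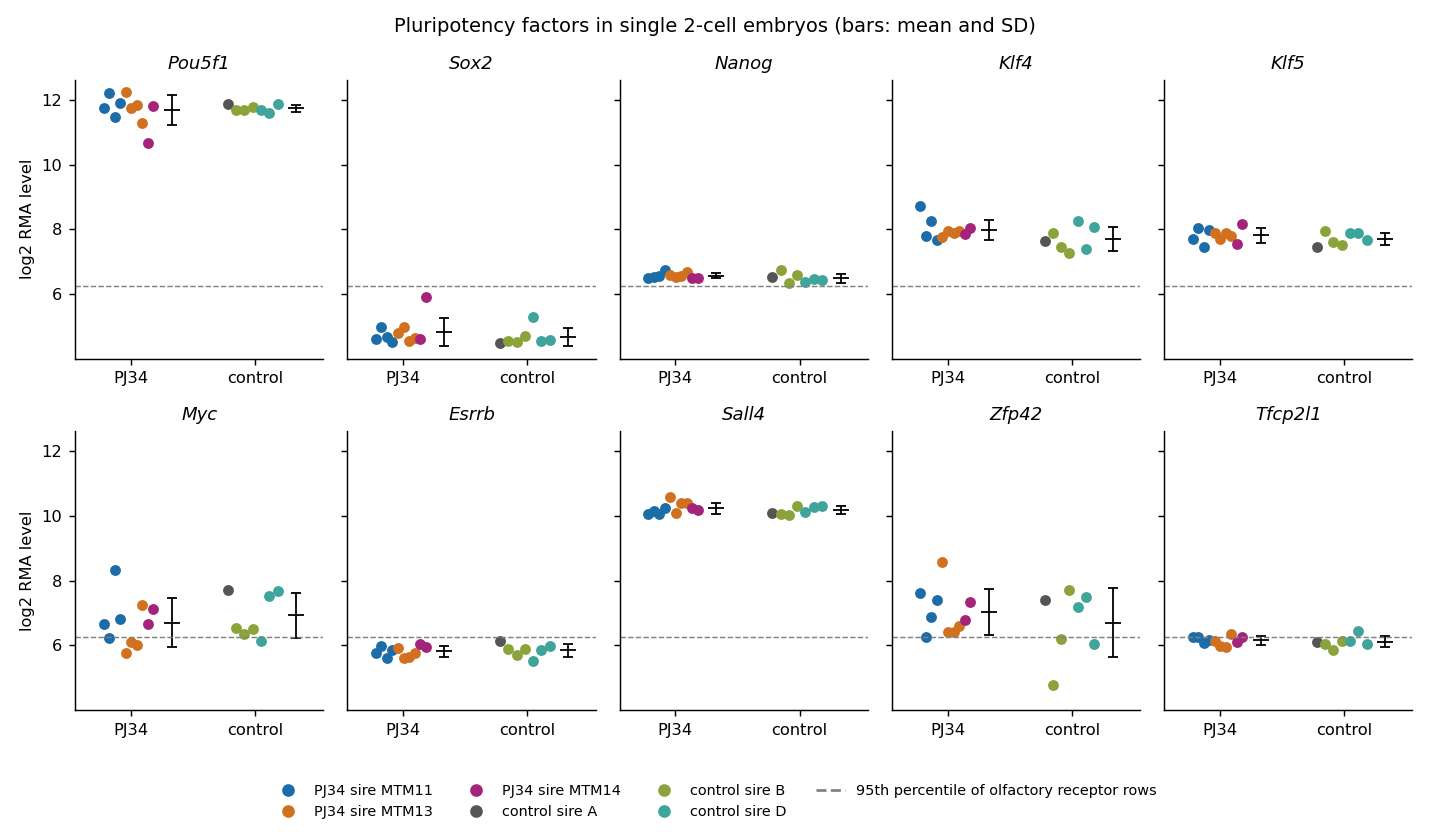
Deposited log2 RMA level of each factor (y axis) in PJ34 embryos (n = 10) and control embryos (n = 7), 1 point per embryo, coloured by sire, with mean and SD as bars and the olfactory receptor background as a dashed line. Pou5f1 and Sall4 lie far above the line in all embryos, Sox2 and Esrrb below it in all, and the groups overlap in each panel.

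Pou5f1, the POU-domain factor at the centre of the circuit, had 1 of the brightest rows of the table, above 98.1% of all rows. It measured 10.65, 11.79 and 12.23 in PJ34 embryos (lowest, median and highest log2 level), against 11.60, 11.69 and 11.88 in control embryos. The means were 11.69 ± 0.46 in PJ34 embryos (SD, n = 10) and 11.74 ± 0.11 in control embryos (SD, n = 7). All control embryos lay within 0.28 log2 units, while 6 of 10 PJ34 embryos were outside the control range, 3 below it and 3 above it. Among rows within 0.5 log2 units of Pou5f1, 20.92% had a lower SD in control embryos and 95.05% in PJ34 embryos. The control range was thus narrower than for most rows of like level, which raises the count of embryos outside it. How often other rows reach this count was not tested. By sire, the PJ34 embryos of MTM11 had 11.74, 12.20, 11.48 and 11.90, those of MTM13 had 12.23, 11.75, 11.84 and 11.30, and those of MTM14 had 10.65 and 11.82. The highest and the lowest values thus came from sires that also had embryos within the control range.

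Sall4, a zinc finger factor that is needed for early embryos and that activates Pou5f1, was nearly constant. It measured 10.06, 10.21 and 10.57 in PJ34 embryos, against 10.02, 10.13 and 10.31 in control embryos. Its SD (0.17 in PJ34 embryos and 0.12 in control embryos) was small for its level: 4.74% of rows within 0.5 log2 units of it had a lower SD in PJ34 embryos, and 3.63% in control embryos.

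The Krüppel-like factors Klf4 and Klf5, which take over part of each other's work in stem cells, were above background in all 17 embryos. Klf4 measured 7.66, 7.91 and 8.71 in PJ34 embryos, against 7.28, 7.65 and 8.24 in control embryos, and 9 of 10 PJ34 embryos were above the control mean. Klf5 measured 7.45, 7.84 and 8.17 in PJ34 embryos, against 7.46, 7.67 and 7.95 in control embryos. The ranges overlapped for both genes.

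Zfp42, the zinc finger gene better known as Rex1, varied widely in both groups. It measured 6.26, 6.84 and 8.56 in PJ34 embryos, against 4.78, 7.20 and 7.72 in control embryos. From its lowest embryo, control B-1, to its highest, PJ34 MTM13-1, the distance was 13.8-fold. Without B-1 its range over the embryos was 2.52 log2 units, against 2.59 for Myc. It was above background in 9 of 10 PJ34 embryos and in 4 of 7 control embryos. Among rows of like level, 90.3% had a lower SD in PJ34 embryos and 96.5% in control embryos.

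Myc, the growth-promoting bHLH factor, was the other widely spread member. It measured 5.75, 6.66 and 8.34 in PJ34 embryos, against 6.14, 6.53 and 7.72 in control embryos. It was above background in 6 of 10 PJ34 embryos and in 5 of 7 control embryos. Control embryos A-2, D-2 and D-3 had 7.72, 7.53 and 7.68, while the other control embryos were at 6.53 or lower, so that both low and high embryos were seen among the controls.

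Nanog, the homeodomain factor of the inner cell mass, sat just over background and hardly varied. It measured 6.48, 6.55 and 6.74 in PJ34 embryos, against 6.33, 6.46 and 6.74 in control embryos. Since 97.9% of olfactory receptor rows were lower, its presence depends on where background is drawn.

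The remaining members were at or below background. Tfcp2l1, a target of the LIF pathway in stem cells, measured 5.95, 6.15 and 6.34 in PJ34 embryos, against 5.86, 6.11 and 6.44 in control embryos. Esrrb, an orphan nuclear receptor, measured 5.61, 5.81 and 6.04 in PJ34 embryos, against 5.51, 5.89 and 6.14 in control embryos. Sox2, the partner of OCT4, measured 4.53, 4.66 and 5.92 in PJ34 embryos, against 4.50, 4.56 and 5.30 in control embryos. For Sox2, 1 embryo stood away from the rest in each group, MTM14-2 among the PJ34 embryos and D-1 among the control embryos, and both were still below the background level.

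No factor was called between all PJ34 embryos and all control embryos. With limma, 0 of 10 members and 0 of 21780 rows passed an adjusted p of 0.1 (0% of rows called). At an unadjusted p of 0.05, 0 members and 1282 rows passed (5.89% of rows), 426 of them higher and 856 lower in PJ34 embryos. A one-way analysis of variance of PJ34 against control also called 0 rows, with 1262 at the same unadjusted threshold. The study's methods name this kind of test. Its gene lists, however, came from single embryos set against the controls, which this group test does not repeat. The median of the members' differences was 0.07 on the log2 scale (3 of 10 negative), beside -0.016 over all rows (56.35% negative).

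The intervals show what these embryos allow. Klf4 had the smallest p, with a difference of 0.27 (95% interval -0.06 to 0.60, limma adjusted p = 0.872). Zfp42 differed by 0.33 (-0.52 to 1.19, adjusted p = 0.938) and Myc by -0.23 (-0.95 to 0.49, adjusted p = 0.944), so that these intervals span changes in either direction. Both values moved with single embryos: Zfp42 was at 0.01 without control B-1, 0.50 without control B-3 and 0.16 without PJ34 MTM13-1. For Myc the range on leaving out 1 embryo was -0.42 (without PJ34 MTM11-3) to -0.10 (without control A-2). The steadier genes gave narrower ones, 0.07 for Sall4 (-0.09 to 0.23, adjusted p = 0.931) and 0.08 for Nanog (-0.05 to 0.20, adjusted p = 0.904). Pou5f1 differed by -0.05 (-0.41 to 0.31, adjusted p = 0.976), and its sign turned to 0.07 without embryo MTM14-1. For Klf5 the difference was 0.11 (-0.11 to 0.33, adjusted p = 0.920).

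**Figure D2:**
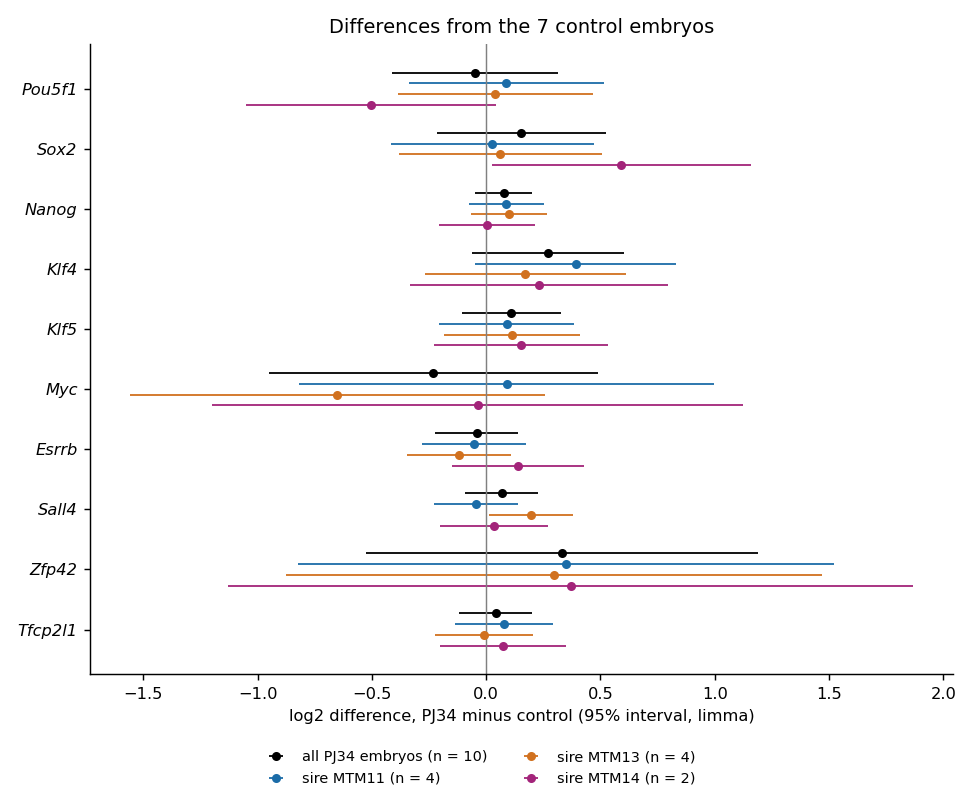
Difference in log2 level from the 7 control embryos (x axis) for each factor, for all PJ34 embryos and for the embryos of each PJ34 sire, with 95% intervals from limma. Most intervals span 0, and the 2 that do not (Sox2 in MTM14 and Sall4 in MTM13) did not pass after adjustment.

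The 3 PJ34 families were then set against the controls separately, since sires may differ. No member was called in any family, where limma called 0.00459% of rows for MTM11, 0% for MTM13 and 0.0551% for MTM14. Sall4 was 0.20 above the control mean in MTM13 (0.01 to 0.38, unadjusted p = 0.0390, limma adjusted p = 0.954). Myc was -0.65 from it in MTM13 (-1.56 to 0.26, adjusted p = 0.954). In MTM14, Pou5f1 was at -0.50 (-1.05 to 0.04, adjusted p = 0.916) and Sox2 at 0.59 (0.02 to 1.16, adjusted p = 0.889), with 2 embryos only. Both values rested on single embryos: without MTM14-1 the Pou5f1 difference was 0.08, and without MTM14-2 the Sox2 difference was -0.07. Without MTM14-1, where 1 embryo is left in the family and is assumed to vary like the others, Sox2 was at 1.25 and passed (limma adjusted p = 0.0763), in a fit that called 80 rows (0.367%) against 12 with both embryos, and at a level below background. No member was called among the PJ34 families (moderated F test in limma, adjusted p = 0.99973 for each member, with 0.0138% of rows called).

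Each embryo was next compared with the controls on its own, since every embryo descends from a separate sperm. Pou5f1 in the PJ34 embryo MTM14-1 was 2.12-fold lower than the mean of the 7 control embryos (log2 difference -1.09, 95% interval -1.39 to -0.78, limma adjusted p = 0.0141). This was the only call among 100 values of members in PJ34 embryos, beside 0.581% of all values called over the 10 embryos and 0.62% of rows called in MTM14-1 itself. Among the controls, compared in turn with the remaining controls, 1 of 70 values was called, beside 0.397% of all values. It was Sox2 in D-1 (0.73 higher, limma adjusted p = 0.0946, in an embryo with 0.427% of rows called), at a level below background. The count of rows called was 63 to 200 per PJ34 embryo (median 123) and 63 to 106 per control embryo (median 93). A control embryo was set against fewer embryos than a PJ34 embryo and, for sires B and D, partly against its own sire's embryos. The counts and shares of the groups are therefore not on an equal footing.

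Other single embryos reached an unadjusted p of 0.05 without passing. For Pou5f1 these were MTM13-1 (0.49 higher, limma adjusted p = 0.297), MTM11-2 (0.46 higher, adjusted p = 0.481) and MTM13-4 (-0.44, adjusted p = 0.384). With MTM14-1, 4 of 10 PJ34 embryos thus reached it for Pou5f1, 2 of them higher and 2 lower, and 2.39% of all rows did so in at least 4 of the 10 PJ34 embryos. These comparisons share the same control mean and control spread, so they are not independent. The other member values to reach it were Klf4 in MTM11-1 (1.00, adjusted p = 0.538), Sall4 in MTM13-1 (0.40, adjusted p = 0.597) and Sox2 in MTM14-2 (1.25, adjusted p = 0.281). In all, 7 of 100 PJ34 member values reached it, beside 6.21% of all values in these embryos, and 4 of 70 control member values, beside 5.7% of all control values, so that both counts were near their background. The largest among the controls was Zfp42 in B-1 (-2.23, adjusted p = 0.591).

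The embryo with the lowest Pou5f1 also had the lowest mean level of the maternal list. The mean of this list in MTM14-1 was 9.27, against a range of 9.32 to 9.57 in control embryos, and its genome activation list was at 8.11, against 8.31 to 8.86 in control embryos. Other embryos had low lists, too. The genome activation list was lowest in MTM13-4, at 8.01. Pou5f1 was 11.30 there, below the control range (11.60 to 11.88) and lower than in any embryo but MTM14-1. This list was also below all control embryos in MTM14-2, at 8.22, where Pou5f1 was 11.82 and within the control range. The maternal list of MTM13-3, at 9.31, was just under the control range, with Pou5f1 at 11.84. The part of these levels in the Pou5f1 value of MTM14-1 was not tested. Its array weight was 0.913, within the range of 0.850 to 1.22 of the control arrays. Oosp1, an oocyte secreted protein gene in the maternal list, was at 11.60 in this embryo, against 12.07 to 12.24 in control embryos. Oosp1 is named because its pattern over these embryos was the most like that of Pou5f1. Its low value here follows in part from that choice and is no separate support.

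The spread of Pou5f1 between embryos was 4.34 times as large in PJ34 embryos as in control embryos, as a ratio of SDs. After centring each group, an exact permutation test (two-sided, 19448 splits) gave a ratio this far from 1 with an unadjusted p of 0.0263, the smallest of the 10 members. For the other members the exact p lay between 0.297 and 0.931. None of these exact p was adjusted for the 10 members tested, and the splits did not keep embryos of the same sire together. A ratio of this size or larger was found in 1.30% of all 21780 rows, and the median row had a log2 SD ratio of 0.064. In the limma fit of absolute deviations across all rows, the Pou5f1 difference was 0.23 (-0.05 to 0.50, unadjusted p = 0.0968, adjusted p = 0.998), and 0 rows passed (0% called).

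The size of this ratio depended on single embryos. Without MTM14-1 it was 2.82 (SD 0.30 in PJ34 embryos and 0.11 in control embryos, exact permutation p = 0.0836), and without sire MTM14 it was 3.02 (exact permutation p = 0.0704). It lay between 2.82 and 5.18 when any embryo or sire was left out, with exact permutation p between 0.0035 and 0.124. Pou5f1 spread among embryos of the same sire, too. Its SD was 0.30 among 4 embryos of MTM11, 0.38 among 4 of MTM13 and 0.82 among 2 of MTM14. In control embryos it was 0.05 among 3 of sire B and 0.14 among 3 of sire D.

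**Figure D3:**
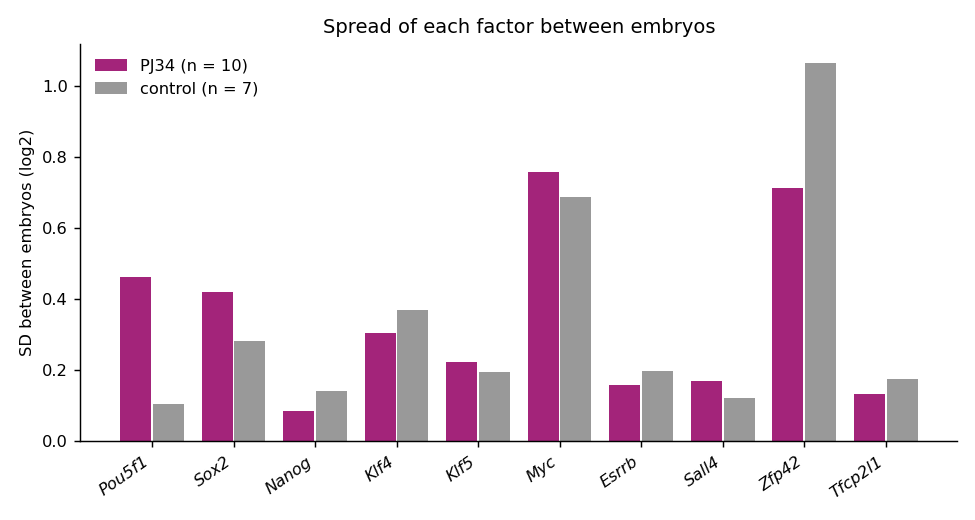
SD between embryos of the log2 level of each factor (y axis, from 0) in PJ34 embryos (left bars, n = 10) and control embryos (right bars, n = 7). Pou5f1 has an SD of 0.46 in PJ34 embryos and 0.11 in control embryos, whereas Zfp42 and Myc have high bars in both groups.

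No pair of factors passed the test of co-variation between embryos. Over the 17 embryos the 45 pairs of members had Pearson r between -0.36 and 0.53 (median 0.10, 27 positive), with a lowest permutation p of 0.869 after Benjamini-Hochberg adjustment over the 45 pairs. Sox2 and Klf5 gave the highest value (r = 0.53, permutation p = 0.0193, adjusted p = 0.869), with rho = 0.25 (permutation p = 0.327, adjusted p = 0.654). Its r was 0.22 without the 2 embryos farthest in Sox2, so it rested on these. Pou5f1 and Zfp42, whose promoter holds the octamer, had r = 0.18 (permutation p = 0.476, adjusted p = 0.904) and rho = 0.15 (permutation p = 0.554, adjusted p = 0.890). This r was -0.02 without the 2 embryos farthest in Pou5f1.

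**Figure D4:**
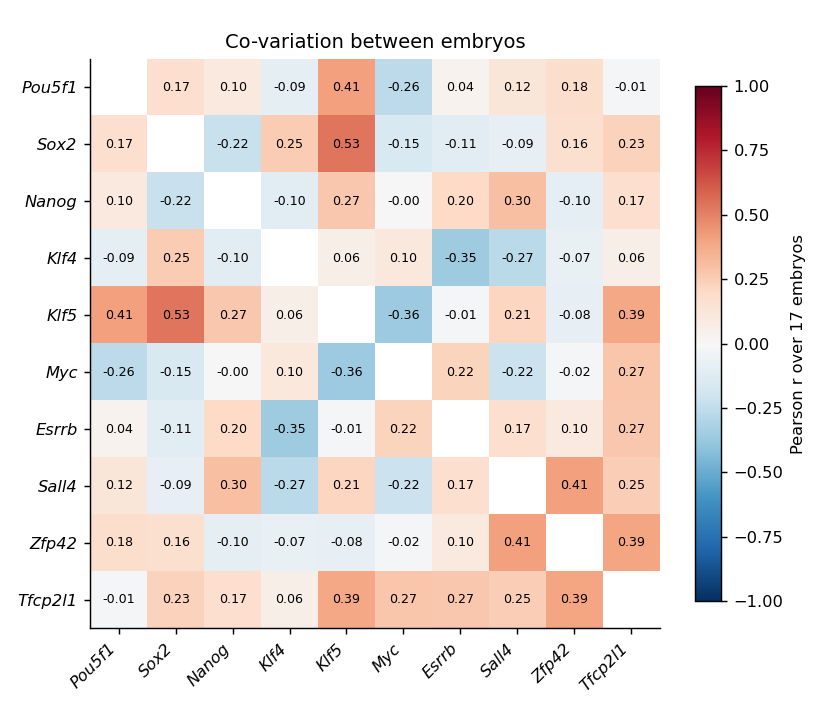
Pearson r between the log2 levels of each pair of factors over 17 embryos, on a colour scale from -1 to 1. The values lie between -0.36 and 0.53, and 27 of the 45 pairs are positive.

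Against the stage markers, 20 relations of members with the maternal or the genome activation list were computed and none passed. Pou5f1 and the mean of the genome activation list had r = 0.63 (permutation p = 0.00648, adjusted p = 0.130) and rho = 0.37 (permutation p = 0.150, adjusted p = 0.966). It was 0.28 without MTM13-4 and MTM14-1, the embryos farthest from the median of that list, so it rested on them. Within the groups r was 0.71 over the PJ34 embryos and -0.12 over the control embryos, and the difference between these was not tested. In MTM13-1 both Pou5f1 (12.23) and the list (9.04) were at their highest of all embryos.

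The rows whose pattern over the 17 embryos was most like each present factor were found by Pearson r among 21780 rows. The top values of so many are high by choice, and they are given as a description. For Pou5f1 these were Oosp1 (r = 0.87), the RNA-binding protein gene Rbpms2 (0.80) and the thyroid hormone receptor gene Thra (0.76). Without the 2 embryos farthest in Pou5f1, r was 0.35 for Rbpms2 and 0.71 for Thra, so the first rested on these embryos. Oosp1 averaged 12.13 ± 0.23 in PJ34 embryos (SD, n = 10) and 12.15 ± 0.06 in control embryos (SD, n = 7). Its likeness to Pou5f1 was 0.71 without the 2 embryos farthest in Pou5f1, with 0.92 within PJ34 embryos and -0.25 within control embryos, where both genes hardly varied.

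**Figure D5:**
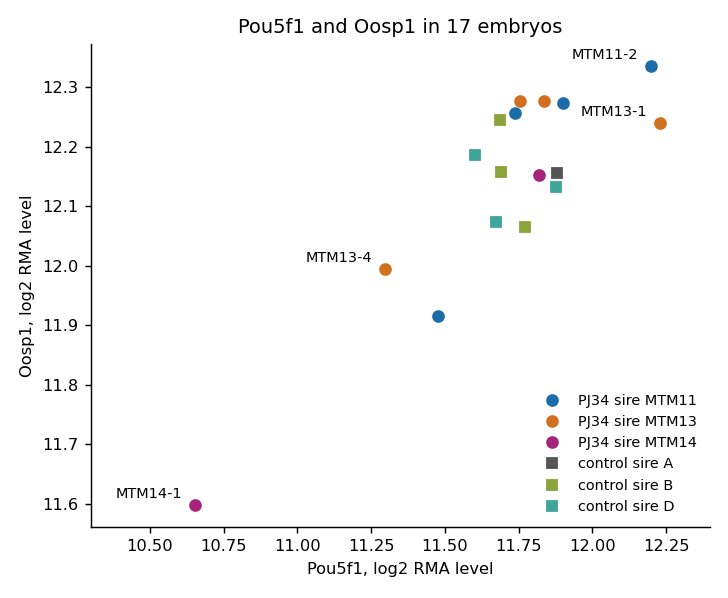
Log2 level of Oosp1 (y axis) against Pou5f1 (x axis) in 17 embryos, PJ34 embryos as circles and control embryos as squares, coloured by sire. PJ34 embryo MTM14-1 is lowest in both genes, and the control embryos lie in a narrow band of Pou5f1.

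For Zfp42 the most alike were Ppip5k2, an inositol pyrophosphate kinase gene (r = 0.87), the calmodulin gene Calm2 (0.77) and the ubiquitin ligase gene Trim32 (0.76). The value for Ppip5k2 was 0.86 within PJ34 embryos and 0.95 within control embryos, and 0.75 without the 2 embryos farthest in Zfp42. Without the same embryos, r was 0.37 for Calm2, which rested on them, and 0.82 for Trim32. In control B-1, the lowest embryo for Zfp42, Ppip5k2 was also lowest, at 9.06, and in MTM13-1, the highest, it was highest, at 10.65. For Sall4 they were Tspyl2 (0.87), E130009M23Rik (0.81) and Znrd1as (0.81), for Klf4 Zfand3 (0.79), the purine synthesis gene Paics (0.79) and Ltn1 (0.76), and for Klf5 Ccz1 (0.82), the G protein subunit gene Gnb1 (0.79) and Fggy (0.79). For Myc they were Wbp2 (0.78), Lancl3 (0.77) and the T-box gene Tbx4 (0.77), and for Nanog Gm6878 (0.79), Sap30bp (0.78) and the homeobox gene Hoxb9 (0.76). The mean level of Gm6878 (5.13), Ltn1 (5.94), Fggy (5.22), Lancl3 (4.96), E130009M23Rik (5.74) and Znrd1as (5.64) was below background. For these 5 factors, r without the 2 embryos farthest in the factor lay between 0.57 (Tbx4) and 0.90 (Gm6878).

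The wider network showed no call either. Of 25 rows of network partners, 0 passed in limma after adjustment and, at an unadjusted p of 0.05, 2 were higher and 1 lower, with a median difference of 0.0023. Nr6a1, an orphan receptor that represses Pou5f1 on differentiation, averaged 9.38 ± 0.11 in PJ34 embryos (SD, n = 10) and 9.58 ± 0.06 in control embryos (SD, n = 7). It was below the control mean in 9 of 10 PJ34 embryos (difference -0.19, -0.30 to -0.09, unadjusted p = 0.00156, limma adjusted p = 0.798). Nr6a1 had the smallest p of its list and was picked for it, so the count of embryos adds no support. The repressor Rest (0.28, 0.03 to 0.53), the LIF effector Stat3 (0.32, 0.03 to 0.62) and the homeobox gene Gbx2 (0.22, -0.00049 to 0.44) had an adjusted p of 0.843 each.

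Of 22 rows of targets of the circuit, 0 passed and 1 was lower at an unadjusted p of 0.05, with a median difference of -0.073. The values with the smallest p were -0.17 for Fbxo15 (-0.31 to -0.03), an F-box gene used as a stem cell marker, -0.36 for the growth factor gene Fgf4 (-0.73 to 0.01), -0.12 for Nr0b2 (-0.27 to 0.02) and -0.56 for Lin28b (-1.30 to 0.18). Their limma adjusted p lay between 0.843 and 0.882. Fgf4 averaged 7.18 ± 0.30 in PJ34 embryos and 7.54 ± 0.45 in control embryos, with 8 of 10 PJ34 embryos below the control mean. Fgf4, too, was named for its small p, so this count of embryos is no separate support. Nr0b2 was below background in all embryos.

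Of 18 rows of the LIF, BMP, FGF and WNT signalling genes, 0 passed. At an unadjusted p of 0.05, 1 was higher and 1 lower, with a median difference of -0.031. Id2, a BMP-responsive inhibitor of bHLH factors, averaged 7.60 ± 0.82 in PJ34 embryos (SD, n = 10) and 6.57 ± 0.38 in control embryos (SD, n = 7). All 10 PJ34 embryos were above the control mean (difference 1.03, 0.36 to 1.69, unadjusted p = 0.00494, limma adjusted p = 0.814). Id2 is named for the smallest p of its list, so this count of embryos is no separate support. The FGF receptor gene Fgfr1 differed by -0.22 (-0.44 to -0.0034, adjusted p = 0.843), Gsk3b, a kinase of the WNT pathway, by -0.28 (-0.62 to 0.05, adjusted p = 0.869) and Id1 by 0.17 (-0.05 to 0.39, adjusted p = 0.882). Over all 3 lists the background of rows at this unadjusted threshold is the 5.89% given above.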

How the data were processed

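RNA of single 2-cell embryos was amplified and hybridised to Affymetrix Mouse Gene 1.0 ST arrays, 1 embryo per array. The authors deposited log2 values normalized together by RMA in Partek (the version and the genome build were not given in the sources used here). These log2 values were used as deposited. No array signal of single probes was used here, so depth is expressed only as signal over background, and the number of arrays limits the precision. Of 28815 rows, 21780 had exactly 1 gene symbol in the platform annotation, 1605 had several and 5430 had none. Symbols were updated through Entrez identifiers, with 21689 rows matched to a RefSeq gene table (GRCm38.p6). Only rows with 1 symbol were tested.

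Groups and sires came from the sample labels. limma 3.58.1 (R 4.3.3; lmFit and eBayes, two-sided) was run over all 21780 rows with Benjamini-Hochberg adjustment and the study's threshold of 0.1, for PJ34 against control, each PJ34 family, each embryo and the absolute deviations from the group median. For single embryos the residual spread came from the control embryos. Correlations used 100000 permutations. The scripts were tested on simulated data. In that test the fit of absolute deviations made no calls after adjustment, so its count of 0 says little about spread. Group-centred values are only approximately exchangeable in the test of SD ratios.

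All rows of the members were named, the 4 rows with the smallest p of each network list, and the 3 rows with the most similar pattern to each member above background. The members, lists and tests were chosen with earlier results of these data known. Alternatives were all rows, a filter on dim rows, centred arrays, another variance prior, array weights and sire as a random block. Further ones were means per sire, a one-way analysis of variance of PJ34 against control, other backgrounds, and leaving out each embryo and sire.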

Additional observations from a re-analysis of the deposited data

Results flagged for a closer look

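In 2 of the 20 groups of embryos examined (10 members in 2 groups), 1 embryo lay apart from all others of its group by Dixon's criterion, and chance marks about 1 group in 20. Both were for Sox2, whose row was below background in all embryos. They were PJ34 embryo MTM14-2 at 5.92 and control embryo D-1 at 5.30 on the log2 scale.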

How the results depend on the processing

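With at most 10 embryos a group and 3 sires each, the precision is low, and a single family's sire cannot be told apart from its treatment. Levels near background (Nanog, Tfcp2l1, Esrrb, Sox2) carry little signal. No paired analysis was possible because embryo numbers hold only within a sire. Over all alternatives no member was called between the groups. Their differences ranged from -0.16 to 0.07 for Pou5f1 and from 0.14 to 0.41 for Klf4, with a lowest limma adjusted p of 0.753. Of 1593 values recomputed under another setting, 1444 kept their direction and side of the threshold (counts, within 1.5 times). The cause of the changes below was not tested.

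The count of rows called for PJ34 against control, 0 as reported, was 2 with the dim-row filter, 1 with array weights, 2 with sire as a random block, 2 without sire A and 1 without sire MTM14, and 0 to 2 leaving out an embryo. For MTM11 it was 0 with array weights and 0 to 1 leaving out an embryo. For MTM13 it was 1 over all rows and 0 to 3 leaving out an embryo. For MTM14 it was 2 to 149 leaving out an embryo. Between families it was 5 over all rows and 0 to 110 leaving out an embryo. For spread it was 6 around the group mean, 13 around the sire mean, 3 without sire A, 28 without sire B, 17 without sire D and 0 to 6 leaving out an embryo. Around the sire mean, 4 of these rows had a larger and 9 a smaller spread in PJ34 embryos. In the other settings all rows called for spread had a smaller spread in PJ34 embryos.

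Small group differences changed sign: Esrrb was 0.0062 without sire A and 0.011 without sire MTM13, Myc 0.047 and Sall4 -0.018 without sire MTM13, Pou5f1 0.064 without sire MTM14, and Tfcp2l1 -0.033 and Zfp42 -0.011 without sire B. Leaving out an embryo gave -0.099 to 0.0062 for Esrrb, -0.11 to 0.065 for Pou5f1 and -0.00041 to 0.097 for Tfcp2l1. In the families, Tfcp2l1 in MTM13 was 0.0037 with centred arrays, and with array weights Myc in MTM14 was 0.011 and Nanog in MTM14 -0.0045. Leaving out an embryo, MTM11 gave -0.11 to 0.0083 for Esrrb, -0.35 to 0.35 for Myc, -0.035 to 0.205 for Pou5f1 and -0.072 to 0.13 for Sox2. MTM13 gave -0.11 to 0.20 for Pou5f1, -0.021 to 0.17 for Sox2, -0.090 to 0.045 for Tfcp2l1 and -0.23 to 0.49 for Zfp42. MTM14 gave -0.16 to 0.46 for Klf5, -0.27 to 0.20 for Myc, -0.022 to 0.046 for Nanog, -1.09 to 0.079 for Pou5f1, -0.065 to 1.25 for Sox2 and -0.015 to 0.16 for Tfcp2l1.

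Differences in absolute deviation changed sign as well. Esrrb was -0.0027 around the group mean, -0.028 around the sire mean, -0.31 as a log2 SD ratio, -0.051 without sire B, -0.0082 without MTM13, -0.018 without MTM14, and -0.019 to 0.044 leaving out an embryo. Tfcp2l1 was -0.024 around the sire mean and without MTM13, -0.38 as a log2 SD ratio, -0.014 without sire A, and -0.014 to 0.042 leaving out an embryo. Myc was 0.15 around the sire mean, 0.14 as a log2 SD ratio, 0.088 without sire A, 0.11 without B, 0.20 without D, 0.062 without MTM14, and -0.14 to 0.088 leaving out an embryo. Klf5 was -0.013 without MTM11, -0.017 without MTM14 and -0.011 to 0.036 leaving out an embryo. Sall4 was -0.0099 around the sire mean and -0.035 without MTM13, and Nanog was 0.0097 without sire B. Sox2 was -0.0026 without MTM14 and -0.014 to 0.20 leaving out an embryo. Zfp42 was 0.12 without sire B and -0.40 to 0.0053 leaving out an embryo.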
